A study of Mus musculus with 32 samples.

Results

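Circadian clock genes were followed in mouse brain arteries. They were chosen by their symbols, with earlier results of these data known, and matched through Ensembl identifiers. They are 10 of the 55357 genes in the read count table: Arntl, Dbp, Tef, Per1, Per2, Per3, Nr1d1, Nr1d2, Ciart and Bhlhe41. All 10 were detected in all 32 mice and passed the filter on low counts in each comparison. Brain arteries of 4 groups of 8 untreated mice were sequenced, 1 library per mouse. Notch3+/+ and Notch3-/- mice, in which Notch3 is intact or inactivated in all cells, were 3 months old. TgNotch3R169C mice, labelled CADASIL, and their non-Tg controls were 12 months old. The transgene is a genomic clone of rat Notch3 that carries an Arg-to-Cys change and is added to the intact mouse gene, so that both the age and the mouse line differ between the first and the last pair of groups and cannot be told apart. The labels give neither the hour of collection nor the sex of each mouse. The p-values below measure the spread between mice.

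In the clock of mammalian cells, the protein of Arntl (BMAL1) pairs with CLOCK or NPAS2 and activates genes through E-boxes, among them the Per genes, Nr1d1, Nr1d2, Dbp, Tef, Ciart and Bhlhe41. PER proteins repress this activator, NR1D1 and NR1D2 (REV-ERBs) repress Arntl, and DBP and TEF act on other genes through D-boxes. The loop runs in vascular smooth muscle and endothelium as in most tissues, and the Arntl transcript peaks at a time of day opposite to that of Dbp. The levels of these transcripts thus depend on the hour at which a tissue is taken.

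Promoter windows of 250 bases before the RefSeq start (build GRCm38.p6) were held for 9 of the 10 genes, in 12 windows. They were searched on both strands for the E-box CACGTG, the variant CACGTT, the D-box TTATGTAA and the ROR half-site AGGTCA. An E-box lay in windows of 4 of the 9 genes, Ciart, Tef, Per1 and Bhlhe41, and in 6.02% of all 32851 windows. The variant lay in the window of Nr1d1 (3.85% of all windows), the D-box in that of Per3 (0.819%), and the half-site in those of Nr1d2 and Per1 (14.02%). The windows of 6 genes are shown as examples from the pattern described below. They are 4 of the genes that moved together, Per1, which did not move with them, and Arntl, which moved against them. Capitals mark the matches, and bases within GENCODE exons of the gene were left out.
Ciart, chr3:95882252-95882478, - strand: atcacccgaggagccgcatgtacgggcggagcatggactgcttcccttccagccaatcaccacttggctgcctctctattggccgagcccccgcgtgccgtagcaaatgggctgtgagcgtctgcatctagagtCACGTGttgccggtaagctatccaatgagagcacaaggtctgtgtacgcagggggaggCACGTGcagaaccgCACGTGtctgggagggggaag
Per3, chr4:151044666-151044915, - strand: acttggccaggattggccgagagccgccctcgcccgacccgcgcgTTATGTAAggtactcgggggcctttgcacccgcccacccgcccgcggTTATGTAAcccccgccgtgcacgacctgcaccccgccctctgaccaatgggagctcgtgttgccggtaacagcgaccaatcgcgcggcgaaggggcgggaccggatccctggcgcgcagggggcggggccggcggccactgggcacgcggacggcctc
Tef, chr15:81811164-81811413, + strand: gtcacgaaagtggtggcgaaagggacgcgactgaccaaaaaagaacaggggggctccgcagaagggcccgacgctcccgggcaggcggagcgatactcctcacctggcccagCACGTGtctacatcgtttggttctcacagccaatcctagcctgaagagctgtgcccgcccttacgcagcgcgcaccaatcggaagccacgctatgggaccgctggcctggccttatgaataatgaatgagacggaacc
Nr1d1, chr11:98775378-98775627, - strand: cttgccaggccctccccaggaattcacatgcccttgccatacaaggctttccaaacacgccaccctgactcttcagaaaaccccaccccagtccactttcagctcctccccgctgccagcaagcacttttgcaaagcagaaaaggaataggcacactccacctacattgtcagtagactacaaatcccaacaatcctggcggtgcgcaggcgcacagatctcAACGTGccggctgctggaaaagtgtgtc
Per1, chr11:69098699-69098947, + strand: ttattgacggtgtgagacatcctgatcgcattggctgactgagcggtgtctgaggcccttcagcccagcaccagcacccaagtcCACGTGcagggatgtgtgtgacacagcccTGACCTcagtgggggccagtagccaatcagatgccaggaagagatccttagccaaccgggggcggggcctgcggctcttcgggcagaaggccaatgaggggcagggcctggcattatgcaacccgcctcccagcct
Arntl, chr7:113207215-113207464, + strand: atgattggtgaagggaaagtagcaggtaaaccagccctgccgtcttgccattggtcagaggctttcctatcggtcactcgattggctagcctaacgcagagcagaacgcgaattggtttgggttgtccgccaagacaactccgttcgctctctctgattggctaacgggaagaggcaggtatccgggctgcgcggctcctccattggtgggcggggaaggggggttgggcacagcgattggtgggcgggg
Ciart held 3 E-boxes and Per3 held 2 D-boxes. The window of Arntl held none of the 4 motifs. That of Dbp, which moved with Ciart, Per3, Tef and Nr1d1 and is not shown, held none either. A match is a description of these letters only.

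Levels were compared between genes in CPM (counts scaled to a common library size) per kilobase of exon. Nr1d1 had the highest mean over the 32 mice at 63.8 CPM per kb, followed by Dbp at 50.005, Tef at 38.9, Nr1d2 at 33.9, Per1 at 22.01, Per3 at 15.2, Bhlhe41 at 11.7, Per2 at 10.1, Ciart at 5.07 and Arntl at 3.51 CPM per kb. The ranges over mice overlapped between each pair of neighbors in this order. The highest Arntl level, 5.08 CPM per kb, was below the lowest level of Per2, 6.02 CPM per kb, and of Bhlhe41, 8.21 CPM per kb. Exons of 5 of the genes overlap a gene on the opposite strand in the GENCODE annotation, among them Nr1d1 with Thra and Dbp with Sphk2. The libraries were stranded, but the strand setting of the counting is not given in the sources used here, so reads of such pairs may be shared.

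Mice of 1 group differed widely in the levels of some clock genes, Dbp and Arntl most of all. In Notch3+/+ mice, Arntl, the activator, ranged from 10.9 CPM to 38.2 CPM with a median of 29.0 CPM. It ranged from 11.1 to 36.4 CPM (median 31.97) in Notch3-/- mice, from 7.95 to 38.02 CPM (median 23.0) in non-Tg mice, and from 8.84 to 37.9 CPM (median 31.7) in TgNotch3R169C mice. Each group thus held a mouse at 11.1 CPM or less and one at 36.4 CPM or more, and the ranges of the 4 groups overlapped. On the log2 scale the widest gap in Arntl over all mice lay between 14.2 and 17.4 CPM, though the gap between 21.3 and 25.8 CPM was nearly as wide on that scale and wider in CPM. Below 17.4 CPM were 7 mice, 1 of the Notch3+/+ group, 3 of the Notch3-/- group, 2 of the non-Tg group and 1 of the TgNotch3R169C group.

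**Figure D1:**
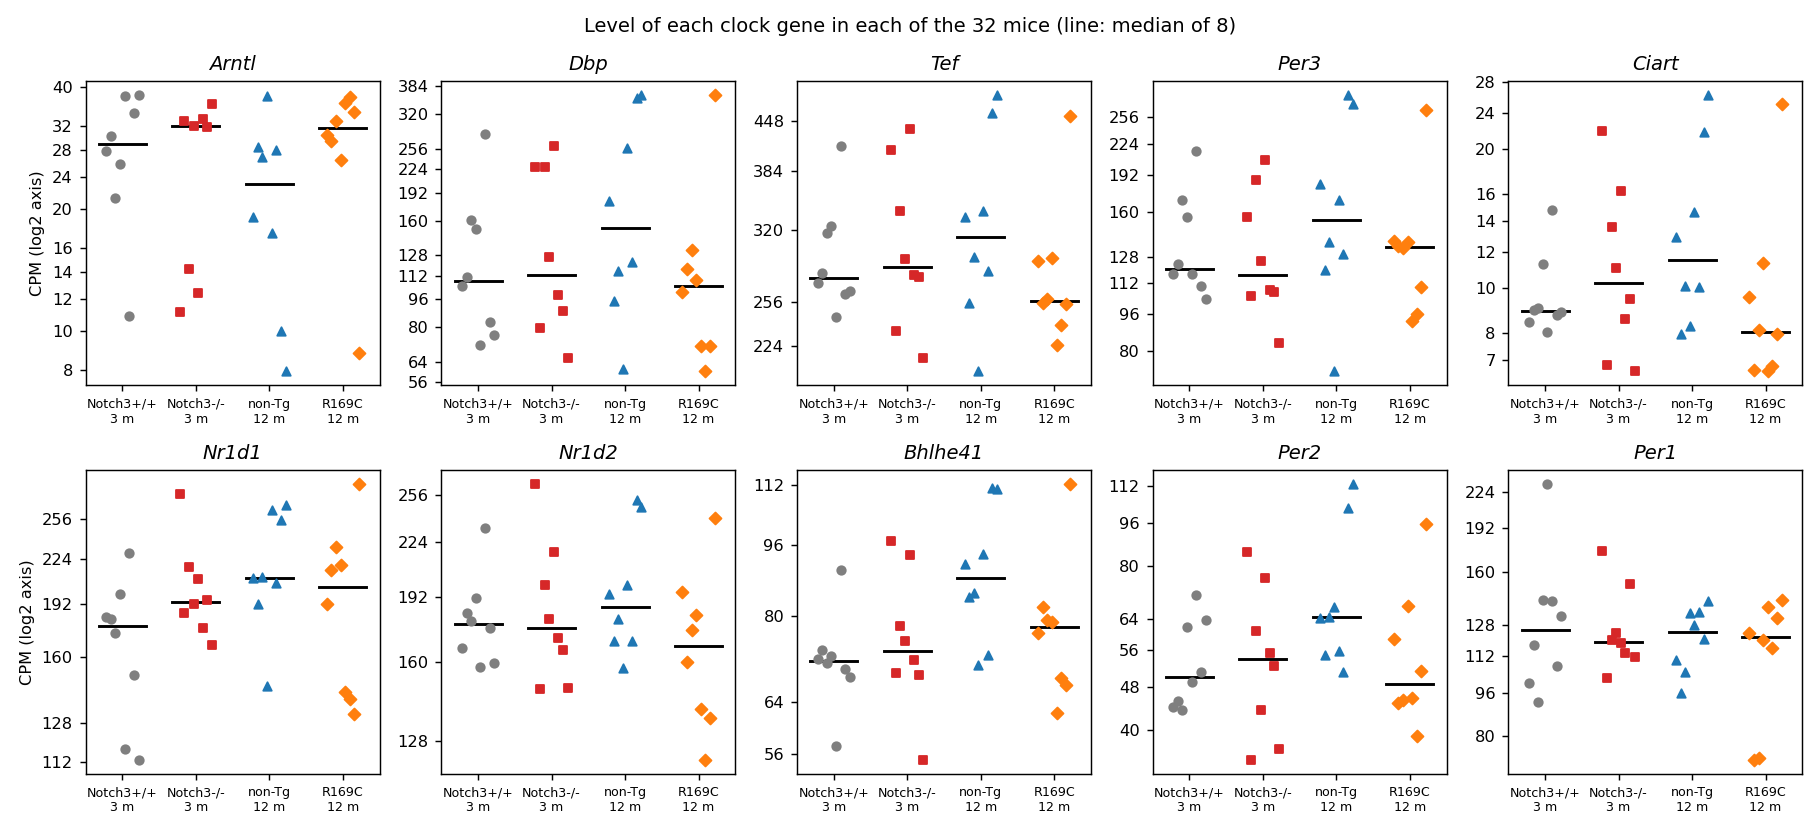
Level of each clock gene in each mouse, in CPM on a log2 axis, by group; each point is a mouse and the line is the median of 8 mice. Arntl ran from 7.95 to 38.2 CPM and Dbp from 60.1 to 363 CPM, and the 4 groups overlap for each gene.

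Dbp, a D-box activator and an output of the clock, had the widest spread. It ranged from 71.4 to 282 CPM (median 108) in Notch3+/+ mice, from 65.6 to 261 CPM (median 113) in Notch3-/- mice, from 61.0 to 362 CPM (median 152) in non-Tg mice, and from 60.1 to 363 CPM (median 105) in TgNotch3R169C mice. The same 7 mice that had the least Arntl were among the 8 with the most Dbp. Mouse 6 of the Notch3+/+ group had 10.9 CPM of Arntl and 282 CPM of Dbp, and mouse 8 of the TgNotch3R169C group had 8.84 CPM of Arntl and 363 CPM of Dbp. Mouse 8 of the Notch3+/+ group, at the other end, had 38.2 CPM of Arntl and 76.2 CPM of Dbp. The ratio of Dbp to Arntl ran from 1.88 to 25.9 in Notch3+/+ mice, from 1.80 to 21.1 in Notch3-/- mice, from 1.605 to 45.6 in non-Tg mice and from 1.59 to 41.1 in TgNotch3R169C mice. It was above 10 in 1, 3, 3 and 1 mice of these groups.

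The spread of log2 CPM within groups (SD) was 0.80 for Dbp and 0.70 for Arntl, larger than in 94.9% and 92.5% of the 18555 genes tested over all mice, whose median SD was 0.20. Ciart, a repressor of the loop, had an SD of 0.56 and Per3, a PER protein gene, of 0.50. The SD was 0.40 for Per2, 0.34 for Tef, 0.33 for Nr1d1 and Per1, 0.26 for Nr1d2 and 0.24 for Bhlhe41, a transcriptional repressor. Those of Tef, Nr1d1, Per1, Nr1d2 and Bhlhe41 were larger than in 68.0%, 67.3%, 66.9%, 59.7% and 56.2% of genes. The highest mouse had 6.04 times the lowest for Dbp, 4.81 times for Arntl, 3.97 times for Ciart, 3.96 times for Per3 and 2.04 times for Bhlhe41, the least variable of the 10.

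Within groups, 8 of the 9 other clock genes fell as Arntl rose. The test was edgeR's quasi-likelihood test of the slope on log2 CPM of Arntl, beside the group terms, in 32 mice, with Benjamini-Hochberg adjustment over 18554 genes. Among all genes 7.53% were called, and 4.69% were called lower, against 8 of these 9 genes, all lower. The slope of Dbp was -1.08 (SE 0.06, adjusted p = 7.91e-13), so that a doubling of Arntl went with 0.474 times the Dbp level. Slopes were -0.74 for Ciart, -0.66 for Per3 and -0.46 (SE 0.03, adjusted p = 7.75e-13) for Tef, a D-box activator related to DBP. Per2 had -0.44 (adjusted p = 3.03e-05), and slopes were -0.36 for Nr1d1 (adjusted p = 0.000103), -0.33 for Nr1d2 and -0.30 for Bhlhe41. Tef, Dbp, Per3 and Ciart ranked 2, 3, 4 and 5 by p among the 18555 genes fitted, Arntl itself included. The slope of Per1, a PER gene that is also induced by glucocorticoids, was -0.07 (95% CI -0.24 to 0.09, adjusted p = 0.648). In the 12-month mice alone all 8 passed the test, and in the 3-month mice alone 6 did: Nr1d1 had a slope of -0.35 (adjusted p = 0.0532) and Per2 of -0.39 (adjusted p = 0.147) there. The numbers of all genes called in these fits by age are given below. With Dbp in place of Arntl as the reference, 8 of 9 passed, 7 of them higher and Arntl lower. The share of all genes called with Dbp is not given here, so this count has no background beside it. Of cell type markers, 3 of 8 for smooth muscle, 3 of 6 for macrophages and 0 of 8 for neurons also passed with Dbp. With Per1 as the reference, chosen after seeing the data, none of the other clock genes passed in the 32 mice by edgeR's test, and Per2 (slope 0.58, adjusted p = 0.376) and Ciart (slope 0.83, adjusted p = 0.405) came closest.

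**Figure D2:**
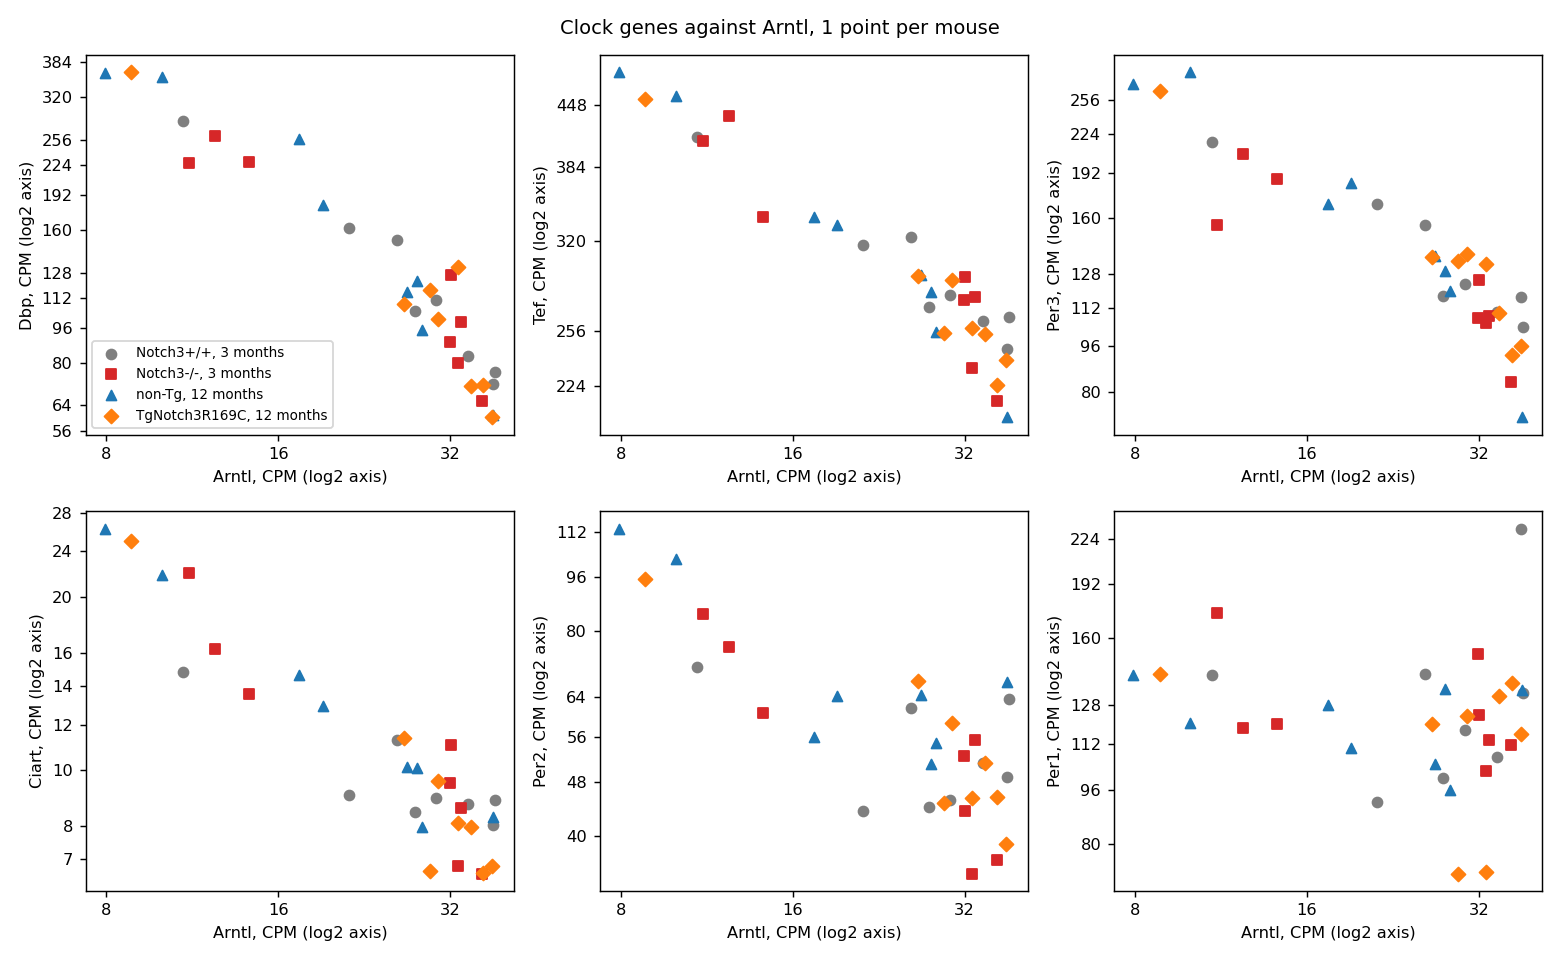
Clock genes against Arntl, both in CPM on log2 axes, 1 point per mouse, with the group by color and shape. Dbp, Tef, Per3 and Ciart fall along 1 line over all 4 groups as Arntl rises from 7.95 to 38.2 CPM, Per2 falls mainly among the mice with the least Arntl, and Per1 shows no trend.

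Pairwise correlations were taken over deviations of log2 CPM from the group mean (32 mice, 45 pairs). The pairs share library, normalization and dissection, and the genes were chosen as a list with earlier results of these data known. The p-values are from 100000 two-sided permutations within groups, without adjustment over the pairs. Tef had r = -0.95 (rho -0.92) with Arntl and Dbp r = -0.95 (rho -0.92). Among all 18554 other genes these were the lowest and the second lowest r with Arntl, and r over all genes had a median of 0.003, with 95% of genes between -0.59 and 0.53. The others had r = -0.93 (rho -0.91) for Per3, -0.93 (rho -0.86) for Ciart, -0.90 (rho -0.88) for Bhlhe41, -0.89 (rho -0.86) for Nr1d2, -0.79 (rho -0.58) for Per2 and -0.77 (rho -0.85) for Nr1d1. The permutation p of r was 1e-05, the smallest the permutations can give, for each of these 8 pairs, and that of rho was 1e-05 for 7 of them and 0.00126 for Per2. For Per1 the values were r = -0.18 (permutation p = 0.307) and rho = -0.15 (permutation p = 0.397). Without the 2 mice farthest from the median of Arntl, r with the 8 genes ran from -0.94 for Dbp to -0.70 for Per2.

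Over the 32 mice the 8 genes rose and fell together, though Per2 did so less in some sets of mice. Their 28 pairs had r between 0.50 and 0.97 with a median of 0.88. Dbp with Per3 was the tightest pair, and Nr1d1 with Per2 was the loosest at 0.50. Per1 stood apart, with r from -0.18 to 0.42 over its 9 pairs. Its highest values were 0.42 with Per2 (permutation p = 0.0131, rho 0.46) and 0.37 with Ciart (permutation p = 0.0327), of which rho, 0.31, had a permutation p of 0.0892. The relations were also seen inside each group of 8: r of Arntl with Dbp was -0.97 in Notch3+/+, -0.95 in Notch3-/-, -0.96 in non-Tg and -0.93 in TgNotch3R169C mice. For Per2 it was -0.87, -0.82 and -0.89 in the last 3 of these groups and -0.40 in Notch3+/+ mice. In Notch3+/+ mice r of Per2 with the rest of the 8 genes ran from 0.11 for Nr1d1 to 0.75 for Ciart. Per1 differed between groups. Its r with the 8 genes ran from 0.24 to 0.75 in Notch3-/- mice and from -0.42 to 0.35 in Notch3+/+ mice. It ran from 0.04 to 0.44 in non-Tg mice and from -0.30 to 0.47 in TgNotch3R169C mice. These differences were not tested.

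**Figure D3:**
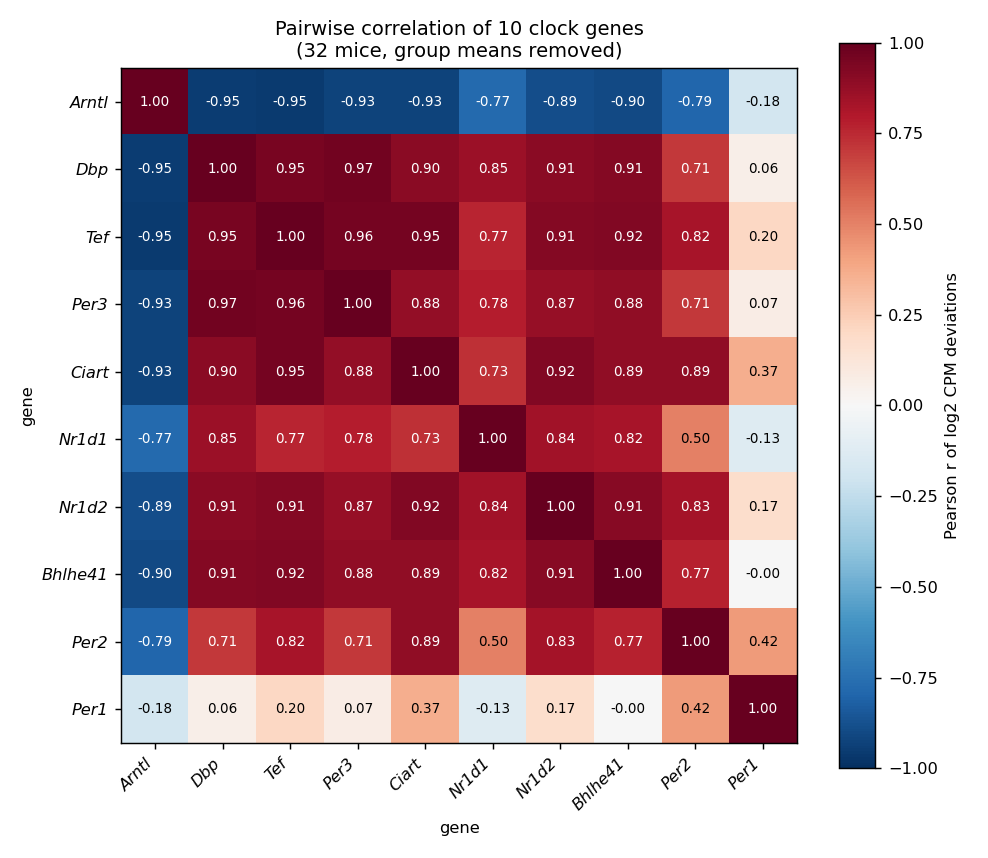
Pearson r for each pair of the 10 genes over 32 mice, with group means removed; red is positive and blue is negative. Arntl runs from -0.95 to -0.77 with 8 genes that correlate at 0.50 to 0.97 with each other, and Per1 lies between -0.18 and 0.42 with each gene.

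Values of r with Arntl were also taken apart in the 25 mice above the widest gap in Arntl and in the 7 below it. This division was chosen after seeing the data. It narrows the range of Arntl and can lower r by that alone. For the 25 mice, deviations were taken again from the group means of those mice. For the 7, deviations from the means of the whole groups were kept. The Notch3+/+ and TgNotch3R169C groups held 1 such mouse each. Shifts between groups can thus enter the values below the gap. Above the gap r was -0.90 for Dbp, -0.89 for Per3, -0.84 for Tef, -0.77 for Nr1d1, -0.69 for Bhlhe41, -0.66 for Ciart, -0.65 for Nr1d2, -0.02 for Per2 and 0.31 for Per1. Below the gap it was -0.88 for Dbp, -0.57 for Per3, -0.83 for Tef, -0.85 for Nr1d1, -0.85 for Bhlhe41, -0.85 for Ciart, -0.75 for Nr1d2, -0.76 for Per2 and -0.65 for Per1. The values for Per2 and Per1 were the farthest apart between these sets of mice. The sets differ in how deviations were taken, so this contrast cannot be read as a change in the relation. The difference was not tested. Above the gap, r of Per2 with the clock genes other than Arntl ran from -0.01 for Nr1d1 to 0.54 for Ciart. Below the gap it ran from 0.39 for Per3 to 0.95 for Ciart, and the same limits apply.

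The genes most like Arntl outside the 10 were taken over the same deviations. Npas2, a partner of BMAL1 like CLOCK, had the highest r at 0.94, followed by Leo1, a subunit of the Paf1 complex, at 0.94, Sphk2, a sphingosine kinase, at 0.90, Adamts15, a secreted protease, at 0.89 and Plat, tissue plasminogen activator, at 0.89. Sphk2 overlaps Dbp on the opposite strand. The lowest r were those of Mthfd1l, a mitochondrial folate enzyme, at -0.93, Tspan4, a tetraspanin, at -0.92, Dgat2, which makes triglycerides, at -0.92, Ccdc85b at -0.91 and Pfkfb3, a regulator of glycolysis, at -0.91. In all, 164 genes had an r beyond 0.7 in either direction with Arntl, and 5 had one with Per1.

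**Figure D4:**
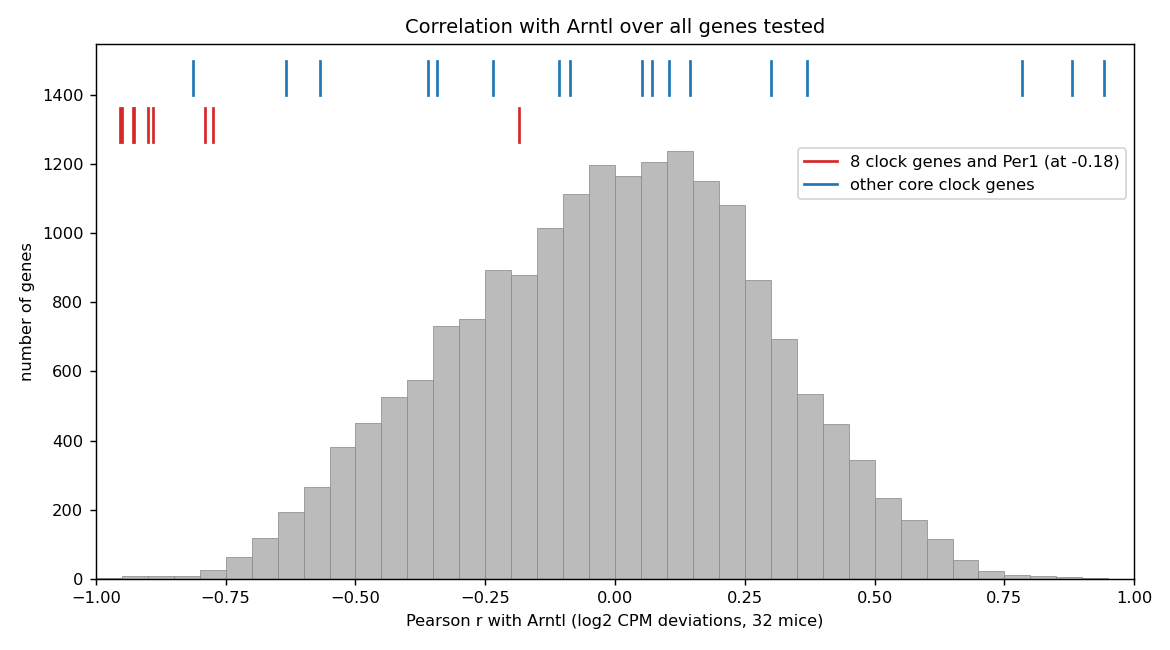
Histogram of Pearson r with Arntl over 18554 genes (x axis, bins of 0.05, 32 mice with group means removed; y axis, number of genes), with ticks for the clock genes (red) and for 17 other core clock genes (blue). The red ticks of 8 genes lie at -0.77 or below and that of Per1 lies at -0.18, and the blue ticks spread from -0.81 to 0.94.

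Of 17 other core clock genes, 3 rose with Arntl and 3 fell, where 7.53% of all genes were called. The median slope was 0.006 against 0.0007 over all genes. Npas2 had a slope of 1.01 (SE 0.07, adjusted p = 6.89e-11). Nfil3, a repressor that competes at D-boxes, had 0.90 (adjusted p = 1.07e-07) and Clock 0.19 (adjusted p = 8.83e-05). Cry2, a partner of PER in repression, had -0.21 (adjusted p = 2.27e-05), Bhlhe40, the paralog of Bhlhe41, -0.21 (adjusted p = 0.00661) and Hlf, the third PAR bZIP gene beside Dbp and Tef, -0.16 (adjusted p = 0.024). Cry1 had r = 0.07 with Arntl and was not called. In the 3-month mice alone Npas2 and Nfil3 were called, and in the 12-month mice alone Npas2, Nfil3, Clock and Cry2. Bhlhe40 and Hlf were called at neither age alone, and Hlf lost its call when any 1 of 4 of the 32 libraries was left out (adjusted p up to 0.0759).

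Of 15 clock-controlled output genes, 4 rose with Arntl and 4 fell, with a median slope of 0.05. Among all genes 7.53% were called for this slope. Leo1 (0.39), Cdkn1a, a cell cycle inhibitor (0.57), Lonrf3 (0.17) and Cyp1b1 (0.16) rose. Tspan4 (-0.48), Por, the electron donor of cytochromes P450 (-0.16), Wee1, a cell cycle kinase (-0.21), and Cirbp, a cold-induced RNA-binding protein (-0.35), fell. Of 9 temperature response genes, 5 rose and 1, Cirbp, fell, with a median slope of 0.39. Those that rose encode heat shock chaperones: Hsph1 (0.58, adjusted p = 0.00154), Hspa8 (0.46), Hsp90aa1 (0.39), and the near-identical pair Hspa1b (0.66) and Hspa1a (0.41), between which reads may be split. Of 12 glucocorticoid response genes, a list that holds Per1, 3 rose, Cdkn1a, Errfi1 (0.22) and Ddit4 (0.28), and none fell. Of 14 immediate early genes, Fosl2 alone rose (0.26), which is near the share among all genes. Cdkn1a and Cirbp are each counted in 2 of these lists. When 1 of the 32 libraries was left out, Cirbp lost its call in 11 cases, Hspa1a in 7, Cyp1b1 in 4, Fosl2 in 2 and Por in 1. In the 3-month mice alone, only Leo1 and Tspan4 of these 4 lists were called, and in the 12-month mice alone Cdkn1a, Leo1, Por, Tspan4 and Hsph1 were.

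Neither mutation changed a clock gene past the test. The first comparison asked whether loss of Notch3 changed these genes at 3 months. Notch3, which checks the labels, fell by 2.37 on the log2 scale in Notch3-/- mice (adjusted p = 1.39e-10). Of the 10 clock genes 0 were called against a background of 0.649% of genes, and 0 had an unadjusted p under 0.05, against 7.69% of genes. DESeq2 also called 0. Nr1d1 came closest. It ranged from 112.7 to 228 CPM (median 178) in Notch3+/+ mice and from 167 to 279 CPM (median 193) in Notch3-/- mice, a log2 change of 0.27 (95% CI -0.02 to 0.56, adjusted p = 0.706). Arntl changed by -0.15 (95% CI -0.75 to 0.46) and Dbp by 0.18 (95% CI -0.54 to 0.90), or 0.690 to 1.86 times for Dbp.

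The second comparison asked whether the R169C transgene changed them at 12 months. Notch3 rose by 1.31 on the log2 scale in TgNotch3R169C mice (adjusted p = 1.75e-05). Again 0 of 10 clock genes were called (background 0.113%) and 0 had an unadjusted p under 0.05 (background 7.27%), and DESeq2 called 0. Arntl was higher by 0.43 (95% CI -0.22 to 1.08) and the other 9 genes were lower, Dbp by -0.60 (SE 0.42, 95% CI -1.48 to 0.28) and Per2 by -0.36 (95% CI -0.78 to 0.07, adjusted p = 0.724). The smallest adjusted p of the 10 was 0.724. Since 8 of the 9 genes moved with each other from mouse to mouse, their shared sign is not 9 separate results. Leaving out a single mouse moved some of these values by over 1.5 times, in either direction. Mouse 8 of the TgNotch3R169C group had the most Dbp of its group, 363 CPM, where the other 7 mice had 60.1 to 132 CPM, and without it the log2 change of Dbp was -1.04 (adjusted p = 0.357), that of Per3 went from -0.31 to -0.51 and that of Ciart from -0.45 to -0.77. Without mouse 8 of the non-Tg group Per2 went to -0.23, Per3 to -0.18, Tef from -0.23 to -0.12, Ciart to -0.25 and Dbp to -0.41. Without mouse 7 of that group Per3 went to -0.17, Tef to -0.15 and Dbp to -0.42.

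The mutant effects were set against each other in 1 fit of all 4 groups. Of the 10 genes 0 were called for a difference between them (background 0.35%), and 0 had an unadjusted p under 0.05 (background 8.62%), and DESeq2 called 0. The difference was -0.43 for Nr1d1 (95% CI -0.89 to 0.02, adjusted p = 0.605), -0.77 for Dbp (95% CI -1.91 to 0.37) and 0.57 for Arntl (95% CI -0.32 to 1.47).

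The control groups, which differ in age and line, were compared as the third contrast. Of the 10 clock genes 0 were called, where 7.92% of all genes were, and 4 had an unadjusted p under 0.05, where 24.2% of all genes did. Bhlhe41 ranged from 57.1 to 90.0 CPM (median 71.2) in Notch3+/+ mice and from 70.5 to 111 CPM (median 88.1) in non-Tg mice. It was higher by 0.32 (SE 0.10, 95% CI 0.11 to 0.53) in non-Tg mice, just short of the threshold at an adjusted p of 0.0554, and 4 of the 8 non-Tg mice lay above all Notch3+/+ mice. Nr1d1 was higher by 0.38 (adjusted p = 0.121), Per2 by 0.41 (adjusted p = 0.137) and Ciart by 0.51 (adjusted p = 0.194). Of the immediate early genes Btg2 was called lower by -0.41 (adjusted p = 0.0403), but it lost that call when any 1 of 10 of the 16 libraries was left out (adjusted p from 0.0333 to 0.0722 over the 16). Bhlhe41 passed the test with the Dbp minus Arntl difference as a covariate (0.20, adjusted p = 0.0185), with Arntl as a covariate (0.19, SE 0.05, adjusted p = 0.0218), with DESeq2 (0.32, adjusted p = 0.0308) and without mouse 6 of the Notch3+/+ group, mouse 4 or mouse 6 of the non-Tg group (adjusted p = 0.0316 to 0.0398). With Ttr, a choroid plexus transcript, as a covariate, Bhlhe41, Per2 and Ciart passed, at 0.54, 0.76 and 0.96 (adjusted p = 0.012, 0.023 and 0.0361). The choroid plexus markers summed to 312 to 661 CPM in Notch3+/+ mice and to a median of 4808 CPM in non-Tg mice. Ttr thus goes largely with the group, this fit cannot separate them well, and no conclusion is drawn from these 3 calls.

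**Figure D5:**
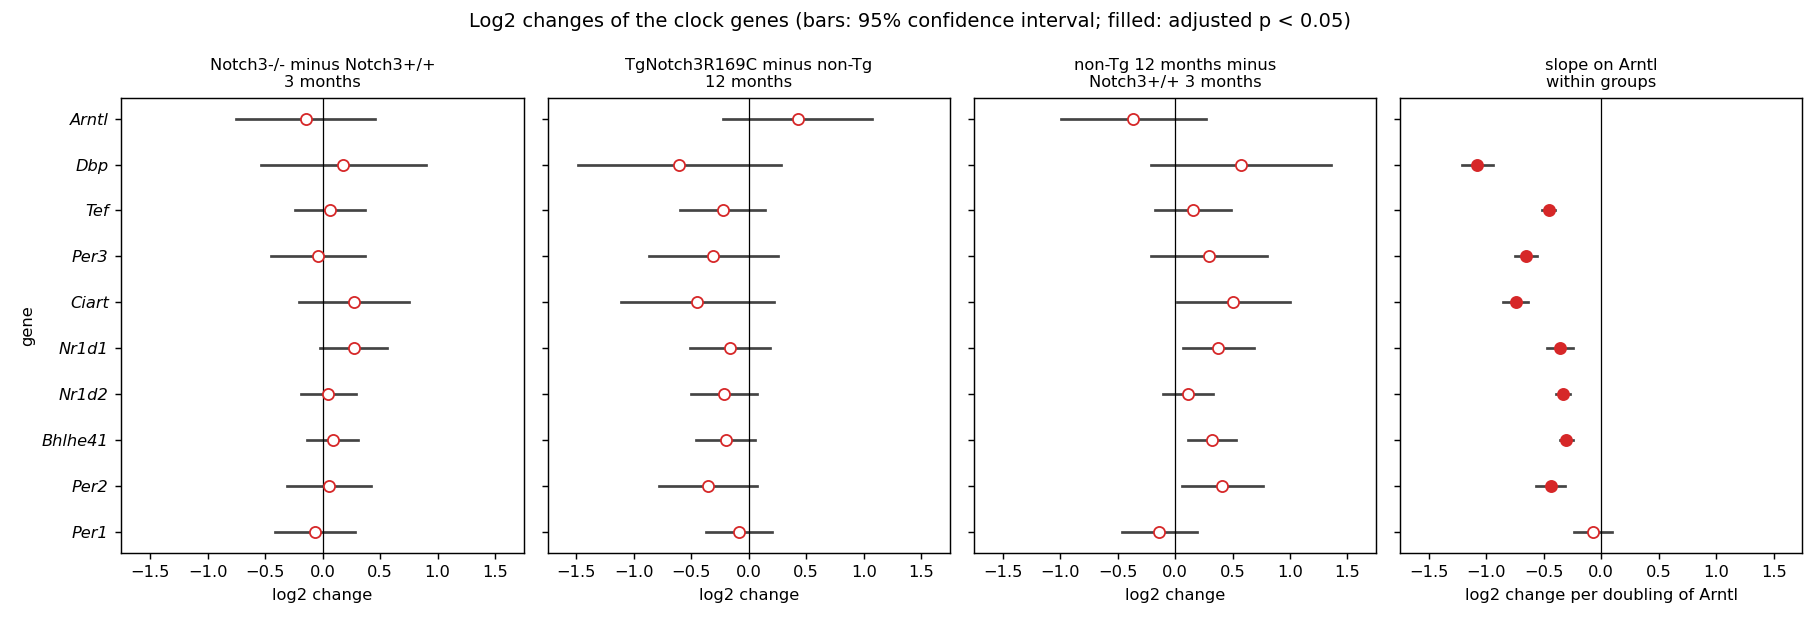
Log2 change of each clock gene in the 3 group comparisons and its slope on Arntl within groups, with 95% confidence intervals; filled points have an adjusted p below 0.05. No group comparison has a filled point, and the slope panel has 8, from -1.08 for Dbp to -0.30 for Bhlhe41.

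Tissue composition was set beside these values. All 8 smooth muscle markers and all 8 endothelial markers were detected, and their summed levels were 1128 to 4238 CPM and 1897 to 3208 CPM. The smooth muscle sum had a median of 2970 CPM in Notch3+/+ mice, 1854 CPM in Notch3-/- mice, 1711 CPM in non-Tg mice and 1515 CPM in TgNotch3R169C mice, and fewer such cells and less RNA per cell cannot be told apart. The choroid plexus sum of 8 markers, none at 0, ranged from 312 to 661 CPM in Notch3+/+ mice, from 227 to 25570 CPM in Notch3-/- mice, from 263 to 25987 CPM in non-Tg mice and from 258 to 14689 CPM in TgNotch3R169C mice. The pituitary sum, over 5 markers, reached 8928 CPM in a Notch3+/+ mouse against a group median of 6.07 CPM. Deviations of Arntl over the 32 mice had r = -0.30 with the smooth muscle sum, -0.29 with the endothelial sum, 0.24 with the choroid plexus sum and -0.42 with the macrophage sum, and r = 0.17 with the log2 total count and -0.19 with the TMM factor. Slopes on Arntl ran from -0.15 to -0.02 for the smooth muscle markers and from -0.13 to 0.07 for the endothelial markers. They ran from 0.13 to 0.92 for the choroid plexus markers, and 0 of 8 were called in each of these lists. For the 5 pituitary markers slopes ran from 0.43 to 2.84, and 0 were called. Cd68 alone of the 6 macrophage markers was called, lower. With Dbp as the reference, 3 of 8 smooth muscle markers (Cnn1, Des and Tagln), 3 of 6 macrophage markers (Cd68, Csf1r and Mrc1) and 1 of 8 endothelial markers (Cldn5) were called, all higher, and deviations of Dbp had r = 0.41 with the smooth muscle sum, 0.53 with the macrophage sum and 0.35 with the endothelial sum. The part of these cells in the clock gene values was not tested beyond the covariates. The 8 clock genes stayed called with Ttr, the neuron list or Xist as a covariate. These covariates had little relation to Arntl (r = 0.24 for Ttr, 0.04 for the neuron sum and -0.14 for Xist). Macrophage and smooth muscle markers were not used as covariates for the slopes.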

How the data were processed

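RNA of brain arteries was sequenced from 32 mice. The deposited values are whole-number read counts of Ensembl genes that the authors did not normalize. The submitters' processing notes name bcl2fastq 2.20.0.422, cutadapt 1.10, Bowtie2 2.2.8, STAR 2.5.3a, HTSeq 0.6.1p1 and mm39, with no role or order; the study tested pairs of groups with DESeq2. Total counts per library were 20289487 to 54481934, and no 2 libraries were duplicates.

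Of 55357 genes, 52081 were given a symbol. Tests used edgeR 4.0.16 under R 4.3.3 (filterByExpr, TMM, quasi-likelihood test, Benjamini-Hochberg adjustment over all genes tested, calls below 0.05) in fits of 2 groups, or of all 32 mice for the difference of the mutant effects and the slope on Arntl. Log2 CPM used a prior count of 2. Correlations used 100000 permutations within groups. DESeq2 1.42.0, other normalizations and filters, covariates, a replicate block and leaving out each library were alternatives. Fits were tested on simulated data.

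The 10 genes, the other lists and the named genes were chosen with earlier results of these data known. Named are the 10 genes, at most 8 other core clock or output genes called per test, the 5 highest and 5 lowest r with Arntl, called genes of the other lists, and Notch3. One gene that this rule names is not reported here. Promoter windows are RefSeq's (GRCm38.p6), and exon lengths and overlaps are from GENCODE vM21 (GRCm38), another build than that of the counts, so they serve for names, lengths and sequence only. Replicate numbers were not taken to pair the mice. Correlations of same-numbered mice were -0.19 to 0.43, -0.32 to 0.54 and -0.20 to 0.38 in the 3 comparisons. The medians for other pairs were -0.02, -0.03 and -0.02. The paper describes the controls as age-matched littermates, and this check cannot exclude shared litters or collection days.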

Additional observations from a re-analysis of the deposited data

Results flagged for a closer look

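Gaps between neighboring mice were taken in CPM in 40 sets of 8 mice (10 genes in 4 groups). Of these sets, 11 held a mouse whose gap to its nearest neighbor took an unusually large share of the range of its group. Chance would give about 2 if CPM were normally distributed within groups, which was not tested. Gaps were not examined on the log2 scale used for the spreads and correlations, where high values lie closer together. The smallest shares below, of mouse 6 of the Notch3+/+ group and mouse 1 of the Notch3-/- group, may depend on this choice. The genes move together, so the 11 sets are not separate results. Mouse 8 of the TgNotch3R169C group was such a mouse for 6 genes, with shares of the range of 0.763 for Dbp, 0.743 for Ciart, 0.735 for Per3, 0.698 for Tef, 0.613 for Bhlhe41 and 0.608 for Arntl. It had the least Arntl and the most of the other 5 genes in its group. Mouse 6 of the Notch3+/+ group was such a mouse for Dbp (0.574), Nr1d2 (0.554) and Tef (0.535), each the highest of its group. Mouse 1 of the Notch3-/- group had the highest Nr1d1 (0.552). Per1 was set apart in another mouse, mouse 5 of the Notch3+/+ group, at 232 CPM against 92.2 to 142 CPM in the other 7 (0.644), and that mouse had 37.98 CPM of Arntl, among the highest.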

How the results depend on the processing

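No alternative changed the number of clock genes called in either mutant comparison, in the difference of the mutant effects (0 in each) or, with Arntl as the reference and all mice, in the slopes (8). Exceptions elsewhere were the 3-month mice alone (6 genes) and Per1 as the reference (0), and in the control groups DESeq2 (1), Arntl or the Dbp minus Arntl difference as a covariate (1 each), Ttr as a covariate (3) and leaving out 1 library (0 to 1). The median r of Arntl with the 8 genes was -0.91, and -0.73 without the 7 mice with the least Arntl.

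The labels number mice 1 to 8 in each group, and these numbers were not taken to pair the mice. With the replicate number as a block, no clock gene call changed. The genes called fell from 20 to 6 in the TgNotch3R169C comparison and from 1398 to 715 between the control groups. All genes called also moved by over 1.5 times with DESeq2 (115 to 280, 20 to 74, 1398 to 2365, and 65 to 153 for the difference of the effects), with all 4 groups in one fit (115 to 174), with the neuron list (20 to 9), with Ttr (20 to 7, and 1398 to 246), with Myh11, a covariate chosen after seeing the data, between the control groups (1398 to 0) and, for the slope on Arntl (1398), without a filter (889), in the 3-month mice (50) and in the 12-month mice (299). Leaving out 1 library gave 767 (without mouse 4 of the non-Tg group, and 882 without mouse 6 of the Notch3+/+ group, the mouse set apart for Dbp) to 2170 (without mouse 1 of the Notch3-/- group) for that slope, 11 to 26 for TgNotch3R169C (11 without mouse 3 or 4 of the non-Tg group, 12 without mouse 1 of the TgNotch3R169C group and 13 without mouse 7 of the non-Tg group) and 895 (without mouse 7 of the Notch3+/+ group) to 1621 between the control groups. Between the control groups, all 8 smooth muscle markers, Myh11 among them, were called lower in non-Tg mice. Their sums did not overlap, at 1350 to 2063 CPM in non-Tg mice and 2420 to 4238 CPM in Notch3+/+ mice. Myh11 thus goes largely with the group, and the fit with it cannot separate them well. No conclusion is drawn from the 0 genes called in that fit. The causes were not tested.

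The log2 changes that turned sign were not called in either direction. With the Dbp minus Arntl difference as a covariate, Nr1d2 became -0.020, Per2 -0.055 and Tef -0.028 in Notch3-/- mice, Nr1d1 0.025, Per3 0.11 (from -0.31) and Tef 0.035 in TgNotch3R169C mice, and Nr1d2 -0.023, Per3 -0.083 (from 0.30) and Tef -0.078 between the control groups. With Arntl as a covariate, chosen after seeing the data, Dbp became -0.054 (from 0.18), Nr1d2 -0.030, Per2 -0.067 and Tef -0.038 in Notch3-/- mice, Nr1d1 0.0036, Per3 0.089 and Tef 0.027 in TgNotch3R169C mice, Dbp -0.013 (from 0.57), Nr1d2 -0.029, Per3 -0.086 and Tef -0.083 between the control groups, and the difference of the effects 0.0084 for Dbp (from -0.77), 0.041 for Per1, 0.25 for Per3 (from -0.26) and 0.065 for Tef. For Per1, that difference became 0.028 with the neuron list and 0.015 with Ttr, and the change between the control groups 0.011 with Myh11. Leaving out 1 library gave ranges in Notch3-/- mice of -0.030 to 0.11 for Nr1d2, -0.14 to 0.099 for Per1, -0.048 to 0.14 for Per2, -0.15 to 0.080 for Per3 and -0.017 to 0.15 for Tef. For Per1 they were -0.18 to 0.060 for the difference of the effects and -0.20 to 0.020 between the control groups. The lowest count of any of these genes in a library was 162, for Ciart. What limits the calls was not tested.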

Other observations

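Few genes passed the test for a slope on Per1. With Per1 in place of Arntl, 3 of 18554 genes were called by edgeR's quasi-likelihood test, Tob2, an antiproliferative gene (slope 0.55, adjusted p = 0.000137), Kirrel2 (-3.10, adjusted p = 0.0419) and Flcn, the folliculin gene (0.29, adjusted p = 0.0419). Tob2 also had the highest r with Per1, 0.82, followed by Egln2 at 0.73. These genes were named after their values were seen.

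Adding the Dbp minus Arntl difference of each mouse to the model changed the list of genes called across the whole table in each comparison. In Notch3-/- mice the count went from 115 to 139 genes with 111 shared, 96.5% of the first list and 79.9% of the second. In TgNotch3R169C mice it went from 20 to 16 with 13 shared, 65% of the first and 81.25% of the second. Between the control groups it went from 1398 to 1988 with 1279 shared, 91.5% of the first and 64.3% of the second. Of the genes called in the mutants, those also called for the slope on Arntl were 4 of 115 (Cspg4, Hcrtr1, Svopl and Tbx2, 3.48%) in Notch3-/- mice and 0 of 20 in TgNotch3R169C mice. Among all genes 7.53% were called for that slope, and the difference was not tested. Of the 1398 genes called between the control groups, 45 (3.22%) did. These tests share mice.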
